A study of Mus musculus with 12 samples.

Results

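The heat shock proteins and chaperones of mouse oocytes were taken as every gene of the count table whose symbol begins with Hsp followed by a, b, d, e, h or a digit, with Dnaja, Dnajb or Dnajc, or with Cct2 to Cct8. The rule used gene symbols only, and 83 of the 24562 genes in the table met it. They comprised 11 HSP70 genes, 3 of the HSP110 type, 3 HSP90 genes, 2 genes for HSP-binding proteins (Hspbp1 and Hspbap1), 4 Dnaja, 13 Dnajb and 28 Dnajc genes, 8 small heat shock protein genes, the 2 mitochondrial chaperonin genes (Hspd1 and Hspe1) and 9 CCT genes. The oocytes came from antral follicles of CD-1 mice whose ovaries had received no hormone stimulation. No mutation or treatment is named that sets the cohorts apart. The study describes a common collection procedure, in medium with milrinone, a drug that keeps oocytes in meiotic arrest. Cumulus cells were stripped off by pipetting, and the denuded oocytes were held in a short culture with milrinone. How long the sequenced oocytes were held before freezing is not stated. There were 4 cohorts of 3 pools each, namely postnatal day (PND) 13, PND16 small, PND16 large and PND40, with 18 to 45 oocytes in a pool. The PND16 mice had been divided by body weight, so those cohorts share an age and differ in growth, whereas PND13 and PND40 differ in age. The study groups PND13 and PND16 small as lacking meiotic competence and PND16 large and PND40 as competent, which gives 6 pools against 6. It presents the cohorts as broad representatives of these states, and its PND16 weight split rests on a small number of animals with data not shown. Competence was not scored in the sequenced oocytes, so competent and non-competent are names of cohorts here.

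Chaperones bind unfolded or partly folded proteins and help them reach or keep their folded state. HSP70 proteins bind and release their clients in a cycle driven by ATP, J-domain (DNAJ) proteins hand clients to HSP70 and speed its ATP hydrolysis, and HSP110-type proteins and Hspbp1 exchange its nucleotide. HSP90 acts later in the folding of many kinases and receptors, CCT is a ring of different subunits that folds actin and tubulin, and Hspd1 with its lid Hspe1 forms the folding chamber of mitochondria. Some family members are made at all times, and others, such as Hspa1a, Hspa1b and Hspb1, are classical targets of the heat shock transcription factor Hsf1. A growing oocyte stores RNA and protein for the embryo.

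Each pool held 17671193 to 27418358 counts. Levels are given as CPM, the count of a gene relative to a fixed library total after scaling by TMM, and as CPM per kb of the principal transcript wherever genes are compared with each other. All 12 oocyte marker genes were present in every cohort, and their summed level ran from 14622 CPM in a PND40 pool to 19226 CPM in a PND13 pool. The 14 granulosa and cumulus cell markers summed to 403, 133 and 464 CPM in the PND13 pools and to 187, 417 and 249 CPM in the PND16 small pools, against 172 to 187 CPM at PND16 large and 150 to 165 CPM at PND40. Within that list, Inha ranged from 2.34 to 143 CPM among the PND13 pools and from 11.4 to 13.2 CPM at PND40. The 8 theca and stroma markers summed to 5.14 to 38.4 CPM and the 6 blood and immune markers to 0.518 to 2.72 CPM. The granulosa sum exceeded 300 CPM in PND13 replicates 1 and 3 and PND16 small replicate 2, so calls that were lost without those 3 pools are given with their adjusted p. In pooled cells, fewer cells of a type and less RNA per cell cannot be told apart.

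The chaperone RNAs tested had a higher median level than all genes tested, though not in every family. The 69 members that passed the filter on low counts had a median level of 12.5 CPM per kb over the 12 pools, beside 5.52 CPM per kb for the 13774 tested genes that had a transcript length. Hsp90ab1, the constitutive cytosolic HSP90, was the highest of the members at 184 CPM per kb, which lies above 98.5% of those genes. It was followed by the ring subunit Cct5 at 158, the mitochondrial J-domain gene Dnajc11 at 146, the J-domain gene Dnajb4 at 129.6, and Hspa9, the mitochondrial HSP70, at 129 CPM per kb. The HSP90 genes had the highest family median at 129 CPM per kb. The 3 small heat shock protein genes tested, which by symbol include Hspb11, had the lowest at 1.40 CPM per kb. Between them, medians were 81.5 for HSP110-type, 71.3 for CCT, 28.85 for Dnaja and 14.8 CPM per kb for mitochondrial chaperonin genes. They were 8.36 for HSP-binding, 8.10 for HSP70, 7.51 for Dnajb and 5.35 CPM per kb for the 26 Dnajc genes tested.

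**Figure D1:**
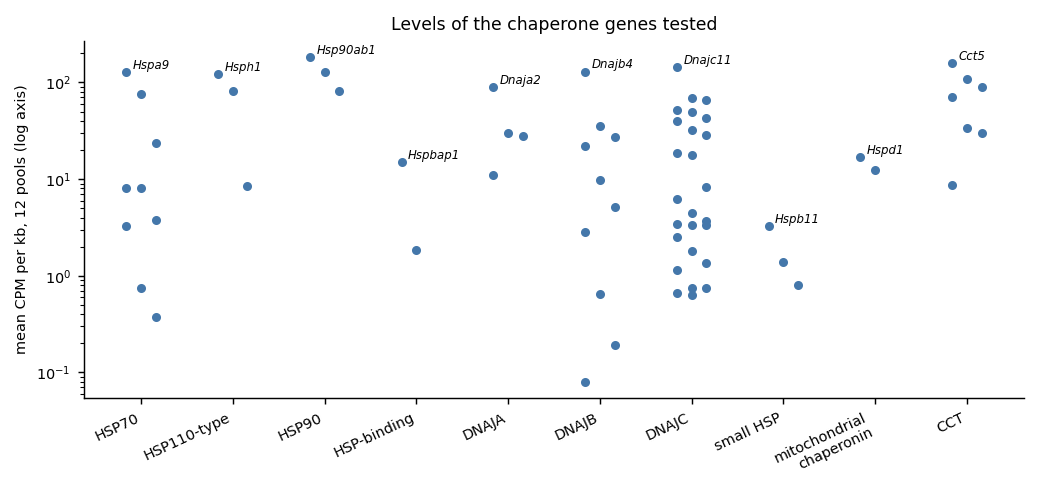
Mean level of the 69 tested chaperone genes over the 12 pools, by family, in CPM per kb of transcript on a log axis; each point is 1 gene and the name marks the highest of its family. The HSP90 genes lie between 81.9 and 184 CPM per kb, and the small heat shock protein genes, grouped by symbol, lie between 0.801 and 3.27 (Hspb11).

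Hspa8, the constitutive cytosolic HSP70, was listed at only 8.17 CPM per kb. Its transcript shares 74.8% of its 50-base windows, the read length, with transcripts of other genes, mostly processed pseudogenes. The same share was 62.3% for Hspa1b, 60.4% for Hspb1, 60.3% for Hspa1a, 58.5% for Hsp90aa1, 44.8% for Hspd1, 41.9% for Dnajb6 and 36.1% for Hspe1. It was 32% for Dnajc19, 18.9% for Dnajc17, 18.3% for Dnaja1 and 16.9% for Dnajc5b. Levels of these genes are uncertain, since reads that match several genes may have been left out or divided by the counting. Only annotated transcripts were searched, and genes that overlap a member's own locus were left out.

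Across the cohorts most members kept close levels. The ratio of the highest to the lowest cohort mean had a median of 1.43 over the 69 members, from 1.07 to 12.6, and 38 members stayed under 1.5-fold. The median over all genes tested was 1.54. PND40 was the highest cohort for 25 members, PND13 for 16, PND16 small for 16 and PND16 large for 12.

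Competent oocytes were first compared with non-competent oocytes. A gene is said to have risen or fallen where edgeR's quasi-likelihood test gave a Benjamini-Hochberg adjusted p of at most 0.05 over all 13943 genes tested and the change was at least 1.5-fold. By this rule 3 members rose, or 4.35% of the 69 tested, beside 3.78% of all genes tested. Another 6 members fell, or 8.70% beside 11.2%. These shares were near those of all genes, and the median log2 fold change of the members was 0.023 against -0.0046 for all genes. Dnajb4, Dnajc5g and Dnajc5b rose, and Cct6a, Hspbp1, Dnajc27, Dnajc28, Hspa13 and Hsph1 fell. With scaling by total counts the split was 2 higher and 7 lower. With no requirement on the fold, 30 members passed, 14 higher and 16 lower, which is 43.5% of the members beside 30.7% of all genes. These shares were not matched for level, and the members had a higher median level than all genes.

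In the comparison of PND40 with PND13, the widest in age, 8 members rose, or 11.6% beside 6.31% of all genes tested, and 8 fell, or 11.6% beside 12.6%. Scaling by total counts gave 5 higher and 9 lower. Without the 3 pools of high granulosa markers, which leaves 1 PND13 pool that is assumed to vary like the others, 2 members rose and 7 fell. Without the fold requirement 36 members passed, 18 in each direction, or 52.2% beside 33.1% of all genes, again not matched for level. The 2 comparisons share 6 pools, so they are not independent of each other, and age and competence cannot be told apart between PND13 and PND40.

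**Figure D2:**
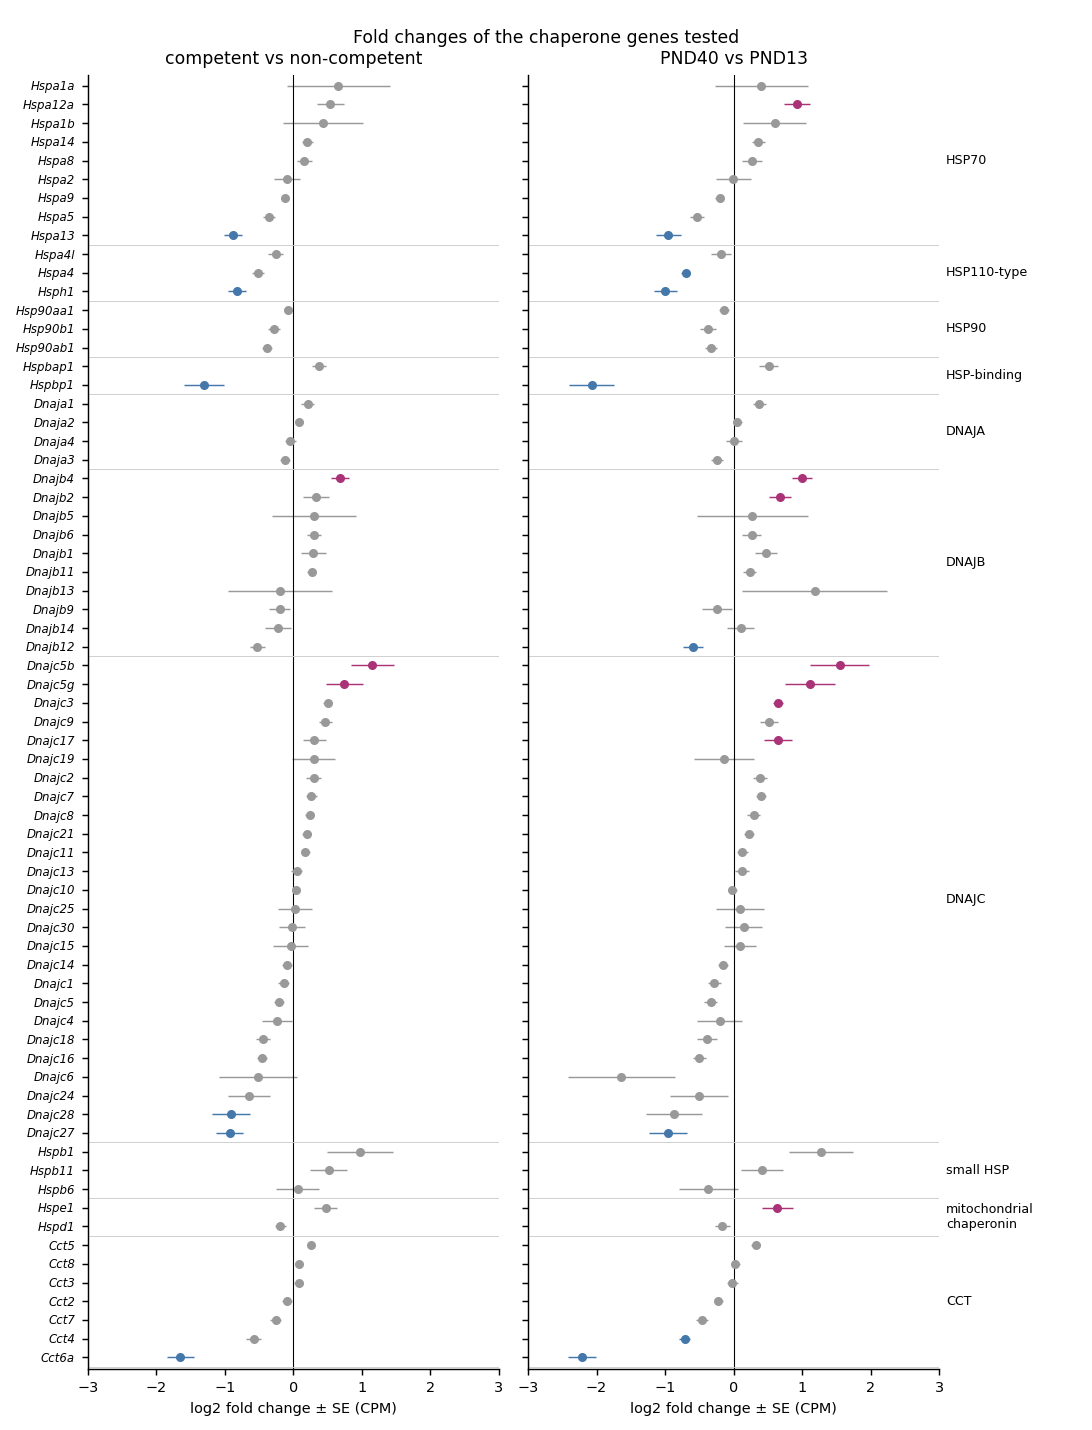
Log2 fold change with its standard error for the 69 tested members, grouped by family, in competent against non-competent oocytes (left) and PND40 against PND13 (right). Genes that rose are purple, genes that fell are blue and the others grey; Cct6a lies farthest to the left in both panels, at -1.65 and -2.21.

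Among the nucleotide exchange factors of HSP70, Hsph1 and Hspbp1 fell in both comparisons and Hspa4 in the second. Hsph1, an HSP110-type protein, was measured at 589, 719 and 668 CPM in the PND13 pools, 674, 386 and 514 CPM at PND16 small, 298, 384 and 337 CPM at PND16 large and 320.3, 323 and 348 CPM at PND40. The highest competent pool, at 384 CPM, lay just below the lowest non-competent pool, at 386 CPM, so the groups did not overlap. Hsph1 fell by 0.82 ± 0.13 on the log2 scale (SE, edgeR's quasi-likelihood test, adjusted p = 0.000332) in competent oocytes and by 1.00 ± 0.17 (adjusted p = 0.000995) from PND13 to PND40.

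Hspa4, the second HSP110-type gene, had 442 ± 32.4 CPM (SD, n = 3) at PND13, 444 ± 18.0 at PND16 small, 348 ± 14.9 at PND16 large and 272 ± 4.73 at PND40. It fell between PND13 and PND40 by 0.70 ± 0.07 (adjusted p = 2.65e-05), and its competent pools all lay below its non-competent pools, with a difference of -0.52 ± 0.08 (adjusted p = 0.000468) that stayed under 1.5-fold. The related Hspa4l did not pass the test in either comparison, with -0.25 ± 0.11 (adjusted p = 0.0932) between the competence groups.

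Hspbp1, which removes nucleotide from HSP70, is a low-level gene here. Its pools held 78, 138 and 120 counts at PND13, 86, 61 and 63 at PND16 small, 53, 70 and 45 at PND16 large, and 30, 33 and 20 at PND40. In CPM this was 4.68 ± 0.858 at PND13 and 1.11 ± 0.327 at PND40 (SD, n = 3), with no overlap between the competence groups. The fall was 1.30 ± 0.29 on the log2 scale between the competence groups (adjusted p = 0.00405) and 2.07 ± 0.33 between PND13 and PND40 (adjusted p = 0.000454), a 4.20-fold difference. Hspbap1, the other gene for an HSP-binding protein, went the opposite way by 0.37 ± 0.10 (adjusted p = 0.0140), under 1.5-fold, and was chosen for mention after its values were seen.

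Within the HSP70 family itself only Hspa13 passed the test between the competence groups. Hspa13, an HSP70-like protein of microsomes, had 20.4 ± 0.539 CPM at PND13, 20.8 ± 4.92 at PND16 small, 11.8 ± 2.33 at PND16 large and 10.5 ± 1.02 at PND40. The non-competent pools ran from 16.6 to 26.2 CPM and the competent pools from 9.63 to 14.5 CPM. Its fall was 0.88 ± 0.13 (adjusted p = 0.000261). Hspa9 changed little, with -0.12 ± 0.06 (adjusted p = 0.135), and Hspa2, best known from spermatocytes, gave -0.09 ± 0.19 (adjusted p = 0.762). Hspa8 gave 0.16 ± 0.11 (adjusted p = 0.292), on counts that are uncertain for the reason above.

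**Figure D3:**
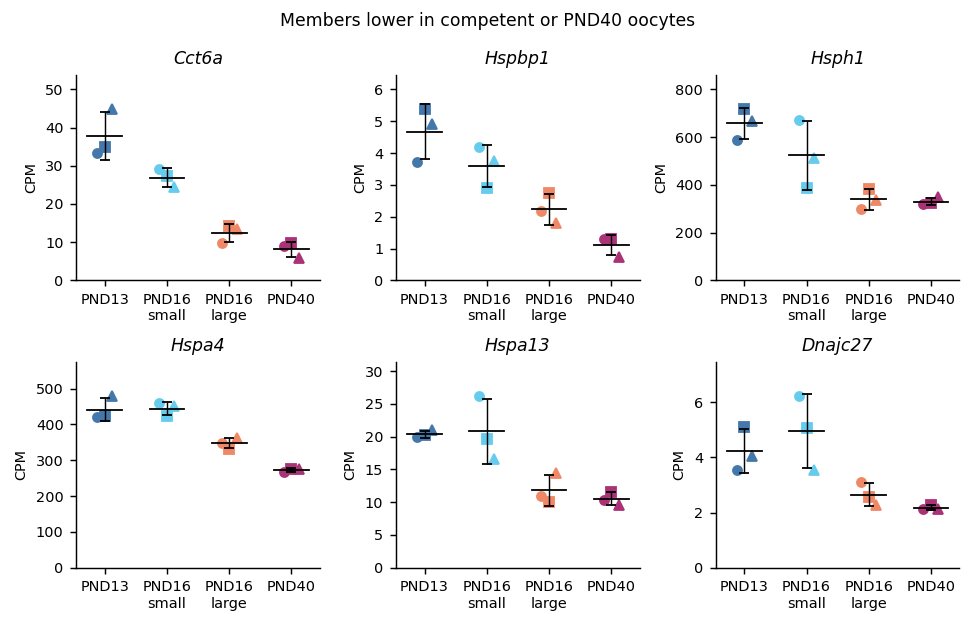
CPM of 6 members that fell between the competence groups or from PND13 to PND40, by cohort; symbols are the 3 pools (circle, square and triangle for replicates 1, 2 and 3), the horizontal line is the mean and the bar is the SD. Cct6a goes from 37.7 CPM at PND13 to 8.15 at PND40, and Hsph1 from 659 to 330.2.

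None of the 3 HSP90 genes passed the test in either comparison, though 2 had an adjusted p under 0.05 in each. Hsp90ab1 had 488 ± 41.4, 560 ± 47.6, 416 ± 26.6 and 388 ± 25.3 CPM (SD, n = 3) in the 4 cohorts in the order PND13, PND16 small, PND16 large and PND40. Its competent pools lay below all non-competent pools, at -0.38 ± 0.07 (edgeR's quasi-likelihood test, adjusted p = 0.00167). Hsp90b1, the HSP90 of the endoplasmic reticulum, gave -0.27 ± 0.09 (adjusted p = 0.0284) with overlapping pools. Hsp90aa1, the inducible cytosolic form, gave -0.08 ± 0.06 (adjusted p = 0.312).

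The largest change of a member between the competence groups was in the CCT ring. Cct6a encodes its zeta subunit and was measured at 33.3, 35.0 and 44.9 CPM at PND13, 29.2, 27.3 and 24.3 CPM at PND16 small, 9.82, 14.2 and 13.5 CPM at PND16 large, and 8.88, 9.68 and 5.88 CPM at PND40. No competent pool reached the level of any non-competent pool, and the cohort means followed the order of the cohorts. The fall was 1.65 ± 0.20 on the log2 scale between the competence groups (edgeR's quasi-likelihood test, adjusted p = 7.55e-05) and 2.21 ± 0.20 from PND13 to PND40 (adjusted p = 2.60e-05), a 4.64-fold difference. Between the neighbouring cohorts, only PND16 large against PND16 small passed the test, at -1.11 ± 0.20 (adjusted p = 0.00424). PND16 small differed from PND13 by -0.49 ± 0.19 (adjusted p = 0.186) and PND40 from PND16 large by -0.62 ± 0.20 (adjusted p = 0.0785).

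The other ring subunits differed far less. Cct4 (delta) had 118 ± 5.38 CPM at PND13, 84.6 ± 3.99 at PND16 small, 63.8 ± 3.29 at PND16 large and 71.9 ± 6.45 at PND40, and it fell from PND13 to PND40 by 0.72 ± 0.08 (adjusted p = 6.94e-05). Cct7 (eta) gave -0.46 ± 0.09 (adjusted p = 0.00159) and Cct2 (beta) -0.22 ± 0.07 (adjusted p = 0.0296) in that comparison, both under 1.5-fold. Cct5 (epsilon) was higher by 0.32 ± 0.07 (adjusted p = 0.00240), also under 1.5-fold, whereas Cct3 (gamma) and Cct8 (theta) gave -0.023 ± 0.081 (adjusted p = 0.856) and 0.024 ± 0.065 (adjusted p = 0.809).

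The ring holds 1 copy of each subunit in each of its layers, so the levels were also set against each other per length. With Tcp1, the alpha subunit, added from outside the symbol rule, the 8 subunit RNAs summed to 585 ± 32.2, 557 ± 30.9, 592 ± 11.1 and 562 ± 11.7 CPM per kb in the 4 cohorts (SD, n = 3). The cohort means of the sum thus lay between 557 and 592 CPM per kb. Cct6a made up 2.63 ± 0.418% of it at PND13, 1.97 ± 0.0803% at PND16 small, 0.863 ± 0.175% at PND16 large and 0.589 ± 0.134% at PND40. Cct5 made up 24.4 ± 0.404% at PND13 and 31.7 ± 0.544% at PND40, the largest share in both.

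Cct6a shares none of its 50-base windows with an annotated gene elsewhere in the genome. Its exons overlap those of Psph, on the opposite strand, over 452 bases or 18.4% of the transcript, and the strand setting of the counting is not given in the sources used here. Psph itself was listed at 5.23 ± 0.665, 2.99 ± 0.886, 1.92 ± 0.636 and 2.07 ± 0.386 CPM in the 4 cohorts (SD, n = 3). The part of this overlap in the Cct6a values was not tested. Exons on the opposite strand also overlapped 19% of the Hspa1a transcript, 14.5% of Hspe1 (with Hspd1) and 10.7% of Dnajc17, among other members.

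**Figure D4:**
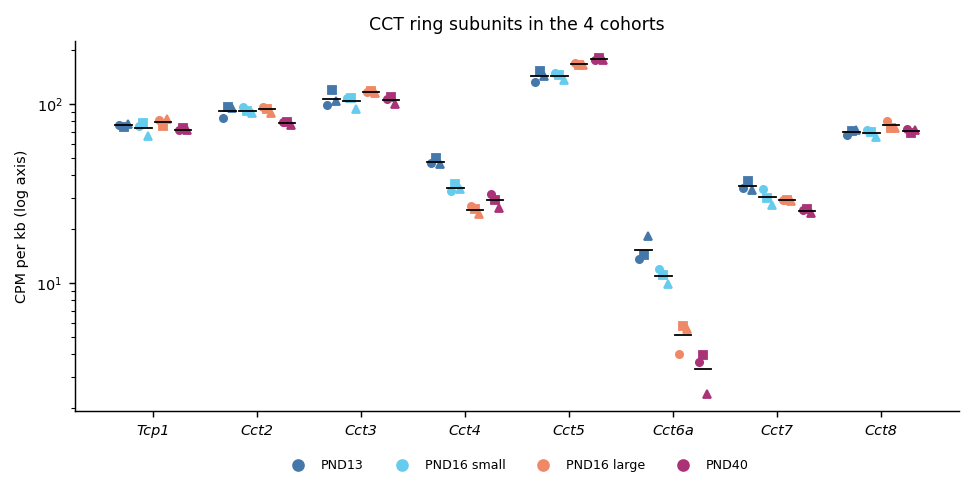
Level of the 8 CCT subunit RNAs, Tcp1 included, in CPM per kb on a log axis; each symbol is a pool, coloured by cohort, and the black line is the cohort mean. Cct6a drops from 15.4 CPM per kb at PND13 to 3.32 at PND40, while Cct5 is at 143 and 178.

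Of the 40 J-domain genes tested, 3 rose in competent oocytes, or 7.5% beside 3.78% of all genes, and 2 fell, or 5% beside 11.2%. Dnajb4 was measured at 252, 218 and 155 CPM at PND13, 249, 324 and 269.6 CPM at PND16 small, 391, 344 and 383 CPM at PND16 large and 438, 417 and 392 CPM at PND40. Competent pools began at 344 CPM and non-competent pools ended at 324 CPM. The rise was 0.69 ± 0.13 (edgeR's quasi-likelihood test, adjusted p = 0.00156), and from PND13 to PND40 it was 1.00 ± 0.15 (adjusted p = 0.000455). The change between neighbouring cohorts did not pass the test at any single step.

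Dnajc5b and Dnajc5g belong to the cysteine string protein family, whose best known member, Dnajc5, sits on secretory vesicles. Dnajc5b had 3.25, 0.742 and 1.31 CPM at PND13, 2.43, 2.04 and 3.62 CPM at PND16 small, 4.62, 4.81 and 4.78 CPM at PND16 large and 3.86, 6.37 and 5.14 CPM at PND40. The rise was 1.15 ± 0.32 (adjusted p = 0.0129). Dnajc5g rose by 0.75 ± 0.27 (adjusted p = 0.0475), with competent pools from 3.44 to 5.92 CPM and non-competent pools from 1.43 to 3.89 CPM that overlapped. Dnajc5 itself, which fell outside the naming rule, gave -0.21 ± 0.07 (adjusted p = 0.0451).

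The Dnajc5g call was lost in 8 of the 12 fits that left out 1 pool, all but those without PND16 large replicate 1 or 2 or PND16 small replicate 1 or 2, with adjusted p up to 0.0988. The Dnajc5b call held in all 12. Without the 3 pools of high granulosa markers both calls were lost, at an adjusted p of 0.136 for Dnajc5g and 0.0605 for Dnajc5b, with no change of direction.

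Dnajc3, a J-domain protein of the endoplasmic reticulum also known as P58IPK, was higher in every competent pool. It had 272 ± 14.6, 287 ± 8.60, 365 ± 22.7 and 426 ± 15.5 CPM in the order of the cohorts (SD, n = 3). The difference of 0.50 ± 0.07 (adjusted p = 0.000131) between the competence groups was just under 1.5-fold, and the rise from PND13 to PND40 was 0.65 ± 0.07 (adjusted p = 4.11e-05). Under scaling by total counts, and without the 3 pools of high granulosa markers, this rise was also under 1.5-fold.

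Of the J-domain genes that fell, Dnajc27, which joins a J domain to a small GTPase fold, had 4.24 ± 0.808 CPM at PND13, 4.95 ± 1.33 at PND16 small, 2.65 ± 0.426 at PND16 large and 2.18 ± 0.0764 at PND40. It fell by 0.93 ± 0.20 (adjusted p = 0.00324) with no overlap between the competence groups. Dnajc28 fell by 0.91 ± 0.28 (adjusted p = 0.0216), but its pools overlapped, at 1.10 to 2.31 CPM in competent and 1.92 to 4.50 CPM in non-competent oocytes. The Dnajc28 call was lost without PND13 replicate 3 or PND40 replicate 3, with adjusted p up to 0.0611, and without the 3 pools of high granulosa markers, at 0.156. The calls of Cct6a, Hspbp1, Hsph1, Hspa13, Dnajc27 and Dnajb4 between the competence groups held in all 12 fits that left out 1 pool and under the 10 other settings.

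Over the whole J-domain families, 1 of the 10 Dnajb genes tested rose and none fell between the competence groups, and 2 of the 26 Dnajc genes rose and 2 fell, while none of the 4 Dnaja genes passed. Dnaja1 and Dnaja2, the main cytosolic partners of HSP70, gave 0.21 ± 0.10 (adjusted p = 0.110) and 0.09 ± 0.06 (adjusted p = 0.233). Dnajb6 gave 0.30 ± 0.10 (adjusted p = 0.0324) and Dnajc7 0.26 ± 0.08 (adjusted p = 0.0187), both under 1.5-fold. Dnajc11, the highest Dnajc gene, gave 0.18 ± 0.06 (adjusted p = 0.0464). Dnajc9, a histone chaperone, at 0.47 ± 0.09 (adjusted p = 0.00197), and Dnajc16, at -0.45 ± 0.08 (adjusted p = 0.000686), had competence groups that did not overlap, and were chosen after their values were seen.

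Several of the members that passed from PND13 to PND40 rested on single pools. Hspe1 rose by 0.64 ± 0.23 (adjusted p = 0.0440), from 7.16, 6.57 and 8.52 CPM to 9.01, 11.9 and 13.7 CPM, but the call was lost without any 1 of the 6 pools other than PND40 replicate 1, with adjusted p up to 0.168. Its partner Hspd1 gave -0.16 ± 0.11 (adjusted p = 0.256), so 1 of the 2 genes of the mitochondrial chamber passed, and the difference between them was not tested. Dnajc17, at 0.64 ± 0.20 (adjusted p = 0.0272), lost its call without any pool but PND40 replicate 3, with adjusted p up to 0.105. Dnajc5g, at 1.11 ± 0.36 (adjusted p = 0.0298), lost it without PND13 replicate 3 or any PND40 pool, with adjusted p up to 0.113. Dnajc5b, at 1.55 ± 0.44 (adjusted p = 0.0154), lost it without PND13 replicate 3 or PND40 replicate 2, with adjusted p up to 0.0681. Dnajc27, at -0.96 ± 0.28 (adjusted p = 0.0176), lost it without PND13 replicate 2 or PND40 replicates 1 or 3, with adjusted p up to 0.0580. Dnajb12, at -0.59 ± 0.15 (adjusted p = 0.00715), dropped under 1.5-fold without PND13 replicate 3 or PND40 replicate 2. Without the 3 pools of high granulosa markers the calls of Hspe1 (adjusted p = 0.0795), Dnajc17 (0.198), Dnajc5g (0.290) and Dnajc27 (0.0521) were lost. Dnajc17 and Dnajb12 were chosen after their values were seen.

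Several members act in the endoplasmic reticulum. From PND13 to PND40, Dnajc3 rose and Hspa13 fell, the latter by 0.95 ± 0.18 (edgeR's quasi-likelihood test, adjusted p = 0.00159). Hspa5, or BiP, the main HSP70 of that compartment, went from 336 ± 19.4 to 232 ± 28.7 CPM (SD, n = 3), a difference of -0.54 ± 0.10 (adjusted p = 0.00116) that was under 1.5-fold. Hsp90b1 gave -0.38 ± 0.12 (adjusted p = 0.0262), Dnajb11 gave 0.23 ± 0.09 (adjusted p = 0.0605) and Dnajb9 gave -0.24 ± 0.22 (adjusted p = 0.422).

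At the single age of PND16, oocytes of large mice were compared with those of small mice. No member rose, beside 1.43% of all genes tested, and 4 members fell, or 5.80% of the 69 beside 4.76%. All 4 had also fallen between the competence groups, which include these pools. They were Cct6a, given above, Dnajc27 at -0.90 ± 0.28 (edgeR's quasi-likelihood test, adjusted p = 0.0479), Hspa13 at -0.82 ± 0.18 (adjusted p = 0.0126) and Hsph1 at -0.63 ± 0.17 (adjusted p = 0.0311). Only the Cct6a call held in all 6 fits that left out 1 of the compared pools. Hspa13 was lost without PND16 large replicate 1 or 2, with adjusted p up to 0.0736. Hsph1 was lost without any of these pools but PND16 small replicate 2, with adjusted p up to 0.139, and Dnajc27 without any but PND16 small replicate 3, with adjusted p up to 0.153. Without the 3 pools of high granulosa markers the Dnajc27 call was lost as well, at an adjusted p of 0.0825. The whole count was 1 without PND16 large replicate 1 or 2, and 2 without PND16 large replicate 3 or PND16 small replicate 1. A fit that blocked on replicate number gave 2.

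In PND16 small against PND13 oocytes, no member rose, beside 0.179% of all genes tested, and none fell, beside 0.194%. At an unadjusted p under 0.05 there were 13 of the 69 members, beside 19.2% of all genes, and DESeq2 called 1. The smallest adjusted p among the members was that of Cct4, at -0.48 ± 0.08 (edgeR's quasi-likelihood test, adjusted p = 0.0318), which was under 1.5-fold. Leaving out PND16 small replicate 1 gave 1 member called. Over all genes this comparison rested on single pools, with 52 genes called in all, 817 without PND16 small replicate 1, 5 without PND16 small replicate 3 and 4 without PND13 replicate 3. Hspa1a had the largest estimate, -3.16 ± 0.81 (adjusted p = 0.0672), from 38, 24 and 45 counts at PND13 and 6, 4 and 0 counts at PND16 small. With total counts as the scale, the median of all genes in this comparison moved to -0.12 on the log2 scale.

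PND40 oocytes were then set against PND16 large oocytes, the pair of competent cohorts. Here 6 members rose, or 8.70% of the 69 beside 2.34% of all genes tested, and none fell, beside 1.32%. They were Hspa1b and Hspb1, classical stress-inducible chaperones, Dnajb1, the inducible HSP40, and Hspa12a, Dnajb2 and Dnajc15. The 3 PND40 pools of these genes lay above the 3 PND16 large pools, which was so for 14 of the 69 members, or 20.3%, beside 20.8% of all genes tested. Hspa12a and Dnajb2 fell outside the naming rule and were chosen after their values were seen. Not every inducible gene rose here. Hsp90aa1, the inducible cytosolic HSP90, had means of 260.9 CPM at PND16 large and 261.4 CPM at PND40. In the same order, means were 339.4 and 330.2 CPM for Hsph1 and 39.13 and 38 CPM for Hspd1. They were 11.02 and 11.54 CPM for Hspe1 and 41.09 and 37.82 CPM for Dnajb6. Hspa1a went from 0.6744 to 2.028 CPM but did not pass the test.

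Sequence upstream of some inducible genes that held a match is shown. Heat shock factors bind repeats of the unit GAA or its complement TTC in alternating orientation. The letters searched were GAANNTTC and TTCNNGAA for 2 units and GAANNTTCNNGAA and TTCNNGAANNTTC for 3 units. Each pair reads as itself or its partner on the other strand, so both strands were covered, and 3-unit matches contain 2-unit matches. RefSeq windows on GRCm38.p6, from 250 bases before to 50 bases after a start, were at hand for 68 of the 83 members. Of these 68 genes, 29.4% held a 2-unit match in a window, beside 17% of all 27025 genes with a window, and 5.88% held a 3-unit match beside 0.662%. The 3-unit matches belonged to Hspd1, Hspe1, Hsph1 and Dnajb6. The 150 bases before the start are printed below from 5′ to 3′ on the strand of the gene, with the matching units in capitals. They are Hspa1a (chr17:34972157-34972306, minus strand), Hspa1b (chr17:34959239-34959388, minus strand), Hspb1 (chr5:135887769-135887918, plus strand), Hsph1 (chr5:149636337-149636486, minus strand), Hspd1 (chr1:55087933-55088082, minus strand) and Hspe1 (chr1:55087998-55088147, plus strand).
Hspa1a: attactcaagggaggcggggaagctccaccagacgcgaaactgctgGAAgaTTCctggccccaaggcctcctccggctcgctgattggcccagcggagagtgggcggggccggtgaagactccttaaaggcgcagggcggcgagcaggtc
Hspa1b: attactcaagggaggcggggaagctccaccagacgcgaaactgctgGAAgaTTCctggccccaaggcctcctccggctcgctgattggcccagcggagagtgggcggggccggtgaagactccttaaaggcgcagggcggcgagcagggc
Hspb1: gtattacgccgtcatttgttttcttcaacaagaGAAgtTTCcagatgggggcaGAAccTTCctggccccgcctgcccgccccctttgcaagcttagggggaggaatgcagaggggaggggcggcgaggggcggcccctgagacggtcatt
Hsph1: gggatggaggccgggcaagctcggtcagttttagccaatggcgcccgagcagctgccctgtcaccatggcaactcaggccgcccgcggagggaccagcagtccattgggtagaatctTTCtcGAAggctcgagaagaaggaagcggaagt
Hspd1: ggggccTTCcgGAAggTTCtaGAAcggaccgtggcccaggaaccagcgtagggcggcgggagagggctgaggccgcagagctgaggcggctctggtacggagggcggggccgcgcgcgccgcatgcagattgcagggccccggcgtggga
Hspe1: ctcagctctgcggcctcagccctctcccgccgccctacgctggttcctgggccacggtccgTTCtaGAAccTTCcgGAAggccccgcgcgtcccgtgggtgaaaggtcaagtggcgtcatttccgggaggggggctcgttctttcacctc

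The stretches of Hspa1a and Hspa1b were the same at 149 of 150 bases. Hspb1 held a pair of matches, 117 and 97 bases before the start. Hspd1 has 2 starts in the table, and the stretch before the other one (chr1:55088244-55088393) held no match. The Hspd1 and Hspe1 stretches overlap on opposite strands and hold the same run of units. Hsph1 held a 2-unit match 33 bases before the start and its 3-unit match after the start, outside the stretch shown. Dnajb1, Hspa12a, Dnajb2 and Dnajc15 held no match in their windows and are not printed, nor is Dnajb6. Among other members that rose or fell, Dnajb4 held a 2-unit match 14 bases before 1 of its starts and none in its other window. Dnajc27 held a 2-unit match 213 bases before its start, and Cct6a and Dnajc5g each held a 2-unit match after the start. A match is a description of the letters and not a site of binding.

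Hspa1b, a stress-inducible HSP70 gene on chromosome 17 (chr17:34956436-34959238, GRCm38), was measured at 1.11, 0.671 and 0.717 CPM in the PND16 large pools and 3.73, 5.65 and 2.68 CPM in the PND40 pools. These values rest on 27, 17 and 18 counts against 87, 142 and 73 counts. The rise was 2.27 ± 0.49 on the log2 scale, or 4.82-fold (edgeR's quasi-likelihood test, adjusted p = 0.0156). The PND13 pools, at 3.20, 1.09 and 3.68 CPM, overlapped the PND40 pools, and the PND16 small pools had 0.972, 1.19 and 0.593 CPM. PND40 differed from PND13 by 0.60 ± 0.46 (adjusted p = 0.343). Within PND13 the 2 pools with high Hspa1b were those with high granulosa markers, whereas PND16 small replicate 2, with 417 CPM of those markers, had 1.19 CPM, and the PND40 pools had the fewest of those markers apart from 1 PND13 pool. The part of granulosa cells in these values was not tested.

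Hspa1a, its near-identical neighbour, was also highest at PND40 but did not pass the test, with 1.35, 0.395 and 0.279 CPM at PND16 large and 1.42, 2.39 and 2.28 CPM at PND40, and a difference of 1.58 ± 0.70 (adjusted p = 0.199). Reads may be divided between the pair, so neither value stands for 1 gene with certainty. Hspa1l, the third gene of this cluster, did not pass the filter and reached at most 0.184 CPM in a pool.

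Hspb1, the small heat shock protein HSP25, had 0.900, 0.592 and 0.756 CPM at PND16 large and 1.42, 3.11 and 3.27 CPM at PND40, and rose by 1.79 ± 0.48 (adjusted p = 0.0405). Its PND13 pools had 1.10, 1.02 and 1.11 CPM, so PND40 was the highest cohort. From PND13 to PND40 the difference was 1.27 ± 0.47 (adjusted p = 0.0507), which missed the threshold. The counts were at most 89 in a pool.

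Dnajb1 was far more abundant, at 81.2, 93.4 and 90.3 CPM in PND16 large and 147, 155 and 136 CPM in PND40 pools. The rise was 0.72 ± 0.16, or 1.65-fold (adjusted p = 0.0210). The PND13 pools, at 90.3, 121 and 103 CPM, and the PND16 small pools, at 112, 81.1 and 65.8 CPM, all lay below the PND40 pools and overlapped those of PND16 large.

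Dnajb2, a J-domain gene known from neurons, rose from 16.2, 14.3 and 14.4 CPM at PND16 large to 28.5, 25.3 and 24.1 CPM at PND40, by 0.79 ± 0.16 (adjusted p = 0.0128). Hspa12a, a distant HSP70 relative, rose from 29.3, 54.4 and 36.4 CPM to 67.9, 66.5 and 76.0 CPM, by 0.81 ± 0.19 (adjusted p = 0.0218). Both also rose from PND13 to PND40, by 0.68 ± 0.16 (adjusted p = 0.00670) and 0.93 ± 0.19 (adjusted p = 0.00238), but not without the 3 pools of high granulosa markers, where the adjusted p was 0.0777 and 0.0733. Dnajc15, a J-domain protein of mitochondria, rose from 3.23, 3.43 and 2.79 CPM to 5.49, 5.46 and 6.95 CPM, by 0.92 ± 0.24 (adjusted p = 0.0372). Its PND13 pools, at 5.06, 6.53 and 5.20 CPM, were as high as those of PND40, with a difference of 0.09 ± 0.24 (adjusted p = 0.801).

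**Figure D5:**
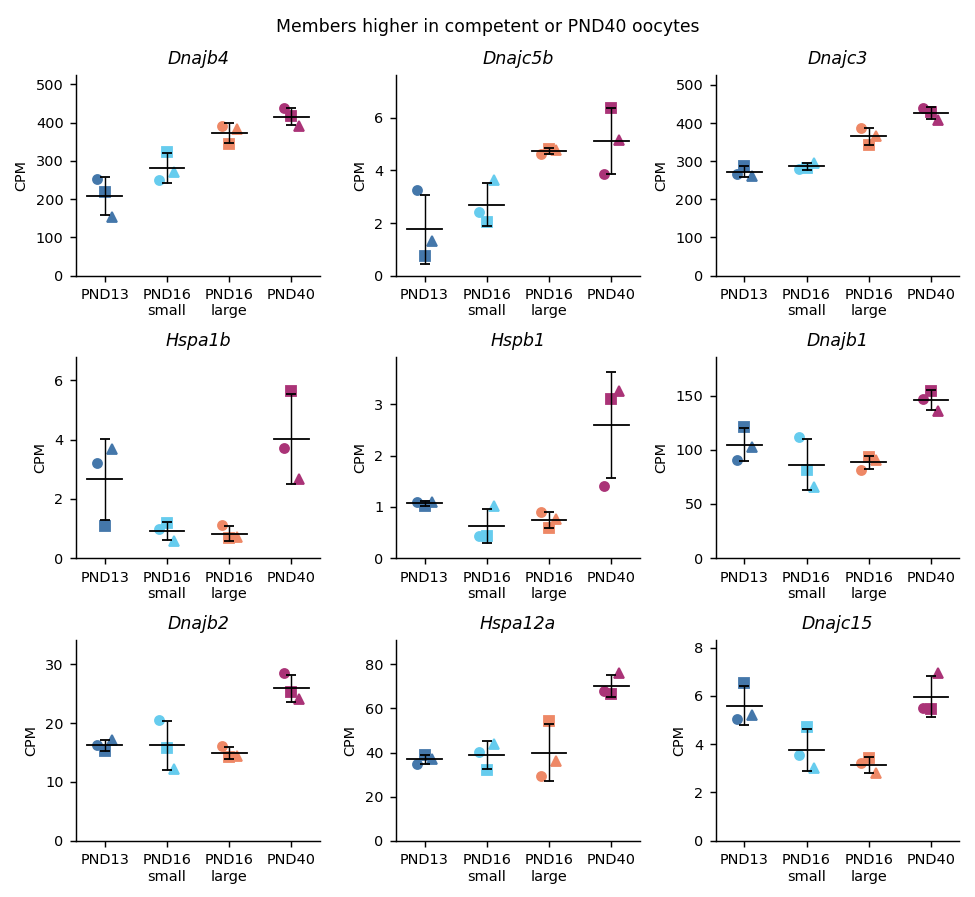
CPM of 9 members that rose between the competence groups, from PND13 to PND40 or from PND16 large to PND40, by cohort; symbols are the 3 pools (circle, square and triangle for replicates 1, 2 and 3), the line is the mean and the bar the SD. Dnajb4 and Dnajc3 are higher in both competent cohorts, while Hspa1b, at 4.02 CPM, and Dnajb1, at 146 CPM, are higher at PND40 than in either PND16 cohort.

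These 6 calls were close to the threshold. Leaving out PND16 large replicate 1, 2 or 3 left 2, 1 or 0 members called, and leaving out PND40 replicate 1, 2 or 3 left 2, 1 or 2. Each gene stayed higher at PND40 in every one of these fits, with adjusted p up to 0.0673 for Dnajb2, 0.0771 for Hspa1b, 0.0964 for Dnajb1, 0.0994 for Hspa12a, 0.153 for Dnajc15 and 0.156 for Hspb1. Without the 3 pools of high granulosa markers, none of which belongs to these cohorts, 6 members were still called. A fit that blocked on replicate number called 4.

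Of the small heat shock proteins beyond Hspb1, Hspb6 had 1.27 ± 0.512 CPM at PND13 and 0.980 ± 0.0586 CPM at PND40 (SD, n = 3) and passed no test, with 0.06 ± 0.31 between the competence groups (edgeR's quasi-likelihood test, adjusted p = 0.898). Hspb11, a part of the transport machinery of cilia despite its name, gave 0.52 ± 0.27 (adjusted p = 0.159) and was chosen after its values were seen. Hspb8 did not pass the filter, with at most 0.274 CPM in a pool.

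The 14 members that did not pass the filter were Cct6b, Cct8l1, Dnajb3, Dnajb7, Dnajb8, Dnajc12, Dnajc22, Hspa12b, Hspa1l, Hspb2, Hspb3, Hspb7, Hspb8 and Hspb9. None exceeded 0.890 CPM in a pool. Dnajb7, Dnajb8, Hspb2 and Hspb9 had 0 counts in all 12 pools, which allows up to 0.110 to 0.178 CPM (3 counts) in a pool. Cct6b, the paralogue of Cct6a known from testis, reached 0.558 CPM in a PND40 pool, where Cct6a had 5.88 to 9.68 CPM.

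Regulators and partners of chaperones outside the symbol rule were read from a list of 52 genes, 48 of which were tested. Between the competence groups none rose, beside 3.78% of all genes, and 5 fell (Hsf2, Fkbp4, Unc45a, Bag5 and Grpel2), or 10.4% beside 11.2%. From PND13 to PND40, 2 rose (Hsf1 and Fkbp5), or 4.17% beside 6.31%, and 5 fell (Hsf2, Fkbp4, Unc45a, Grpel2 and Pdia6), or 10.4% beside 12.6%. Between the PND16 cohorts 4 fell (Hsf2, Unc45a, Bag5 and Grpel2), or 8.33% beside 4.76%, and none rose, beside 1.43%. None passed from PND16 large to PND40 or from PND13 to PND16 small.

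Of the 5 heat shock factor genes on the list, Hsf3 and Hsf4 did not pass the filter and Hsf5 passed no test, with 0.28 ± 0.11 between the competence groups (edgeR's quasi-likelihood test, adjusted p = 0.0542). Hsf1 had 60.7, 70.2 and 55.6 CPM at PND13, 58.7, 53.8 and 52.7 CPM at PND16 small, 66.4, 67.6 and 60.9 CPM at PND16 large and 97.7, 96.7 and 87.8 CPM at PND40. All PND40 pools lay above all others, and the rise from PND13 was 0.60 ± 0.10 (adjusted p = 0.000578), while between the competence groups the difference of 0.44 ± 0.12 (adjusted p = 0.0155) was under 1.5-fold. From PND16 large to PND40 the difference was 0.53 ± 0.10 (adjusted p = 0.00678), also under 1.5-fold. Hsf2, a factor with roles in development, had 53.9, 52.8 and 58.3 CPM at PND13, 61.8, 40.3 and 48.5 CPM at PND16 small, 23.8, 26.3 and 29.3 CPM at PND16 large and 17.9, 20.8 and 18.9 CPM at PND40. The non-competent pools were all above the competent ones, with a fall of 1.20 ± 0.13 (adjusted p = 3.77e-05), and of 0.93 ± 0.14 (adjusted p = 0.00272) between the PND16 cohorts.

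Among the partners of HSP90, Unc45a, a co-chaperone of myosin folding, had 12.8 ± 3.64 CPM in the 6 non-competent and 4.48 ± 1.27 CPM in the 6 competent pools (SD), and fell by 1.51 ± 0.22 (edgeR's quasi-likelihood test, adjusted p = 0.000237). Fkbp4, the immunophilin of steroid receptor complexes, fell by 0.75 ± 0.11 (adjusted p = 0.000209). Its relative Fkbp5 rose from PND13 to PND40 by 0.70 ± 0.09 (adjusted p = 0.000114). Stip1 was higher at PND40 than at PND13 by 0.43 ± 0.06 (adjusted p = 0.000243), under 1.5-fold. Between the competence groups Grpel2, a nucleotide exchange factor for the HSP70 of mitochondria, fell by 1.05 ± 0.17 (adjusted p = 0.000465). Bag5, an exchange factor of the cytosol, fell by 0.96 ± 0.24 (adjusted p = 0.00744). Their relatives did not pass. Grpel1 gave 0.06 ± 0.08 (adjusted p = 0.632), Bag1 -0.07 ± 0.12 (0.678) and Bag3 -1.06 ± 0.60 (0.191). Bag4 gave 0.05 ± 0.06 (0.553) and Bag6 -0.005 ± 0.061 (0.965).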

How the data were processed

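Total RNA depleted of ribosomal RNA of 12 oocyte pools had been sequenced with reads of 50 bases by the authors, who deposited raw counts per gene, made with STAR and HTSeq on mm10 according to the submitters' processing notes. Versions and the strand setting of the counting are not given in the sources used here. A second deposited table of normalized values was not used. The counts were tested with edgeR 4.0.16 (R 4.3.3), using TMM, filterByExpr with a minimum count of 10 and the robust quasi-likelihood test, over 13943 genes. Competent and non-competent pools entered 1 fit of 2 groups, and the other 4 comparisons were contrasts in a model of the 4 cohorts. Standard errors were approximated from the fold change and its F statistic. The script was tested on simulated data.

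The members and gene lists were chosen with earlier results of these data known. Named genes were, by rule, those called between the competence groups (up to 10 each way), up to 3 each way in the other comparisons, a list of core chaperones, and the 5 highest per kb. Transcript lengths, coordinates and shared 50-base windows came from GENCODE M21 (GRCm38), and promoters from RefSeq. The submitters' titles name the pools as replicates. The study states that oocytes of 3 mice per cohort made up 3 independent pools, without saying whether each pool held a single animal. Where pools do not come from separate animals, p-values measure only the spread between pools. Alternatives were DESeq2 1.42.0, other scalings and filters, a replicate block and leaving out each pool. Limits at 0 counts cover counting error only.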

Additional observations from a re-analysis of the deposited data

Results flagged for a closer look

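In 98 groups of 6 pools (49 members, each in the competent and the non-competent pools), 5 held a pool that stood apart from the other 5 by Dixon's criterion, about as many as chance gives at 1 in 20. Hspa14 was among these members and Dnajc5 was not. Each group joins 2 cohorts. Hsp90b1 was at 406 CPM in PND16 large replicate 1, with the other competent pools at 299 to 338 CPM. Hspa4l was at 89.7 CPM in PND40 replicate 2, against 64.6 to 72.9 CPM. Dnajc17 was at 5.71 CPM in PND40 replicate 1, against 4.66 to 5.02 CPM. Hspb6 was at 1.86 CPM in PND13 replicate 1, against 0.729 to 1.02 CPM in the other non-competent pools. Hspd1 was the only low value, at 36.2 CPM in PND13 replicate 2, against 43.7 to 46.6 CPM.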

How the results depend on the processing

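Counts of members called are compared here with 9 between the competence groups, 16 for PND40 against PND13, 0 for PND16 small against PND13, 4 for PND16 large against PND16 small and 6 for PND40 against PND16 large. With no fold requirement they were 30, 36, 1, 11 and 8. DESeq2 gave 1 for PND16 small against PND13 and 9 for PND40 against PND16 large (7 higher, 2 lower). With no filter on low counts the PND16 cohorts gave 2 and PND40 against PND16 large 4. Fitting only the PND16 cohorts gave 1. Without the 3 pools of high granulosa markers, a setting chosen after seeing the data, PND40 against PND13 gave 9. Leaving out 1 pool at a time gave 7 to 11, 11 to 18, 0 to 1, 1 to 4 and 0 to 6 in the order above. The replicate block gave 2 between the PND16 cohorts and 4 for PND40 against PND16 large, and no other count moved by over 1.5 times. Deviations of same-numbered pools from their cohort means correlated from -0.44 to 0.08. With 3 pools in a cohort the deviations depend on each other, so these values cannot show whether a number marks a shared batch. Of 1078 values of the same 49 members between the competence groups under 22 alternatives, 1025 kept direction and call. The sign turned in 11, all of members that had not passed: Dnajc15 (0.059 without the 3 pools of high granulosa markers), and, over the fits that left out 1 pool, Dnajc15 (-0.20 to 0.068), Hspa1b (-0.0087 to 0.78), Hspa2 (-0.18 to 0.050) and Hspb6 (-0.031 to 0.30). The cause of these changes was not tested. With 3 pools in a cohort, and under 100 counts a pool for Hspb1, small changes of low-level members were not detectable at this depth.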
